A study of Mus musculus with 12 samples.

Results

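The effect of the VERCUR co-treatment on the cortical transcriptome was examined over both genotypes at once, by comparing the 6 VERCUR-treated mice with the 6 mice that received the vehicle (VEH). All 12 of the 12 RNA-seq samples of the series entered the comparison, with genotype as an additive term. The treatment difference of each gene was thus an average over WT and CD mice, which need not share it. Frontal cortex of male mice on a C57BL/6J background was sequenced, with 3 mice in each of the groups VEH-WT, VERCUR-WT, VEH-CD and VERCUR-CD. CD mice carry a heterozygous deletion from Gtf2i to Fkbp6 in every tissue and model the Williams–Beuren syndrome, and the line had been crossed to Thy1-YFP mice, in which pyramidal neurons carry a fluorescent protein. VERCUR stands for curcumin (60 mg/kg/day) and verapamil (10 mg/kg/day) in the drinking water from 8 weeks of age, doses and age as the labels give them, while the study's methods state a lower dose of verapamil. The labels put the sacrifice at 16 weeks after 1 month of treatment, and the methods describe a longer treatment and an earlier end. Control mice are labelled untreated, although by the methods they drank water with the solvent of the drugs. Curcumin and verapamil were given together in all sequenced treated mice, so that the effect of each drug cannot be told apart here.

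Verapamil blocks L-type voltage-gated calcium channels, whose pore is formed in brain mainly by the products of Cacna1c and Cacna1d, and it also inhibits the efflux transporter P-glycoprotein, encoded in mice by Abcb1a and Abcb1b. Calcium entry through L-type channels is one of the routes by which synaptic activity switches on immediate early genes in cortical neurons. Curcumin is a plant polyphenol known to release the transcription factor NRF2 (Nfe2l2), which drives antioxidant genes from the antioxidant response element, and to restrain the inflammatory factor NF-kappa B.

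The 4 sequences shown are the RNA with the smallest p value, the promoters of 2 genes whose treated and control mice did not overlap, and that of the heat shock gene with the smallest p value. None of the counts or fits below depends on them. Bc1 is a short non-coding RNA transcribed by RNA polymerase III and carried into dendrites, where it restrains translation. In GENCODE M21 it is a lincRNA gene at chr7:144914470-144914637 on the plus strand of GRCm38, and its 168 bases are given 5′ to 3′, with capitals for the stretch of 60 bases (positions 77 to 136) that is 81.7% A. The promoters are RefSeq windows of 300 bases (GRCm38.p6), from 250 bases before to 50 after a transcription start. Capitals mark the core of the antioxidant response element, TGACNNNGC, in Mgst1 (chr6:138140277-138140576, plus strand, match on the opposite strand) and Naip2 (chr13:100202073-100202372, minus strand), and the heat shock element GAANNTTC in Hspa1a (chr17:34972107-34972406, minus strand).
Bc1: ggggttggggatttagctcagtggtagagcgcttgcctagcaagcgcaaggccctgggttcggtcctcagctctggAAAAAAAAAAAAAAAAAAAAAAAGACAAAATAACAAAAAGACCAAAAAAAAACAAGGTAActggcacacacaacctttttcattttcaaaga
Mgst1: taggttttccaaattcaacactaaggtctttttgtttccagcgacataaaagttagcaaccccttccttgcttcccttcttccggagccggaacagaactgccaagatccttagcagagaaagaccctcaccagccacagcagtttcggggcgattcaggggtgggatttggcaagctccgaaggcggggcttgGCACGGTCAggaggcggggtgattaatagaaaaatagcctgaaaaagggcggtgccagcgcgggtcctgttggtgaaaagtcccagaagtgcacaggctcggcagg
Naip2: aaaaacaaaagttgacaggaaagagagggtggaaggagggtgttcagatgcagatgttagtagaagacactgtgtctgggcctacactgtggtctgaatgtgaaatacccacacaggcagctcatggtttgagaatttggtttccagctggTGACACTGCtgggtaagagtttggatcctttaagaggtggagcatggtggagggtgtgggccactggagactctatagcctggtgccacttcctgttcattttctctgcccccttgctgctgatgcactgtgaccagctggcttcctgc
Hspa1a: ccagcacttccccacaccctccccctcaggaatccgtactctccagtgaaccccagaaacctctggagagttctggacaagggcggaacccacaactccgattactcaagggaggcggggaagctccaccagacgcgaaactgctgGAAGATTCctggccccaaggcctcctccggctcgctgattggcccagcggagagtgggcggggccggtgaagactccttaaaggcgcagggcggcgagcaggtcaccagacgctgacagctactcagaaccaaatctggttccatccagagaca
Both strands were searched, and the core TGACNNNGC was present in a window of 14.0% of the 27025 genes with a promoter in the table. It was present in 9 of the 26 genes with a window in the NRF2 and antioxidant list, and in 2 of the 7 genes with a window among the 9 that were higher in all VERCUR mice, which are the 2 shown. GAANNTTC was present in 9.04% of all these genes and in 10 of the 20 with a window in the heat shock list. A match describes letters in a window and not a bound site.

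No gene was differentially expressed between VERCUR and VEH mice over both genotypes. Of 17111 genes tested, 0 (0%) were DEGs, defined by an adjusted p under 0.05 with a fold change of more than 25% up or down, and 0 reached the adjusted p alone (limma with Benjamini-Hochberg adjustment). The smallest adjusted p of any gene was 0.9998, so that every gene named below has an adjusted p of at least 0.9998 in this fit. At an unadjusted p under 0.05 there were 494 genes (2.89%), 245 higher (1.43%) and 249 lower (1.46%) in VERCUR mice, where uniformly spread p values would give 5%. Scaled to total reads in limma's voom the same threshold gave 190 higher and 300 lower genes. The data were precise enough for most genes to bound the difference averaged over the genotypes. The 95% interval lay wholly within 25% up or down for 11813 genes (69.0%). The median half-width of the interval was 0.176 on the log2 scale, a fold of 1.13. All log2 fold changes are VERCUR minus VEH on the scale of log2(normalized count + 1), and understate the change of weakly expressed genes.

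The 6 VERCUR and the 6 VEH values were entirely apart for 13 of the 17111 genes (0.076%), 9 higher (0.0526%) and 4 lower (0.0234%) in VERCUR mice. Among so many genes some separate like this without any effect of treatment, and the number to expect then was not computed. Mgst1, which encodes a membrane-bound glutathione transferase, had normalized counts of 191.1 to 236.2 in the 6 VERCUR mice and of 112.0 to 183.3 in the 6 VEH mice. In VEH-WT its counts were 146.8, 112.0 and 178.2, in VERCUR-WT 191.1, 236.2 and 206.1, in VEH-CD 179.4, 156.3 and 183.3, and in VERCUR-CD 211.1, 215.8 and 207.9. The gap between the treatments was thus narrow, from 183.3 to 191.1, and was seen in each genotype (log2 fold change 0.42 ± 0.110 (SE), 0.55 in WT and 0.29 in CD, unadjusted p = 0.00197). Naip2, a cytosolic receptor for bacterial proteins that feeds the NLRC4 inflammasome, had 66.69 to 81.90 normalized counts in VERCUR-WT against 39.26 to 59.10 in VEH-WT. In VERCUR-CD it had 61.95 to 72.18 and in VEH-CD 51.51 to 55.99, so that all VERCUR mice lay above all VEH mice (log2 fold change 0.40 ± 0.123, unadjusted p = 0.00576). The Naip genes are near-identical copies in a tandem array and reads can be split among them. Its neighbor in the inflammasome list, Naip5, overlapped between the treatments (0.42 ± 0.203, unadjusted p = 0.0604).

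Among the other separated genes, Ndst4, an enzyme that modifies heparan sulfate, showed the largest difference. Its normalized counts were 40.35, 36.95 and 46.93 in VEH-WT and 59.35, 52.79 and 62.10 in VERCUR-WT. In VEH-CD they were 39.99, 38.85 and 28.75, and in VERCUR-CD 62.82, 83.63 and 147.2. The difference was present in both genotypes and was largest in a single VERCUR-CD mouse (log2 fold change 0.91 ± 0.215, unadjusted p = 0.000869). Dpf3, a subunit of the BAF chromatin remodeling complex, ranged from 124.2 to 169.7 in VERCUR and from 100.6 to 121.0 in VEH mice, with nearly the same log2 fold change in WT (0.37) and CD (0.39). Syce2, a component of the synaptonemal complex, ranged from 43.92 to 59.28 against 24.72 to 41.93, and the transcript 6030443J06Rik from 12.21 to 17.25 against 8.97 to 11.55. In the other direction, Sfxn3, a mitochondrial carrier, had 4602 to 5035 normalized counts in VERCUR and 5042 to 5347 in VEH mice, which is a log2 fold change of -0.11 ± 0.035. Qpctl, a Golgi glutaminyl cyclase, had 771.6 to 833.2 against 846.6 to 908.0 (-0.11 ± 0.043). Tchh, trichohyalin, had 324.2 to 422.5 against 426.8 to 484.8 (-0.21 ± 0.064), and Gm15265 had 3.85 to 11.21 against 11.30 to 14.57. Of the genes described here, Sfxn3 and Qpctl had the highest counts and the smallest differences. The other 3 separated genes were Edn3, Atg10 and Gm20683, all higher in VERCUR mice.

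**Figure D1:**
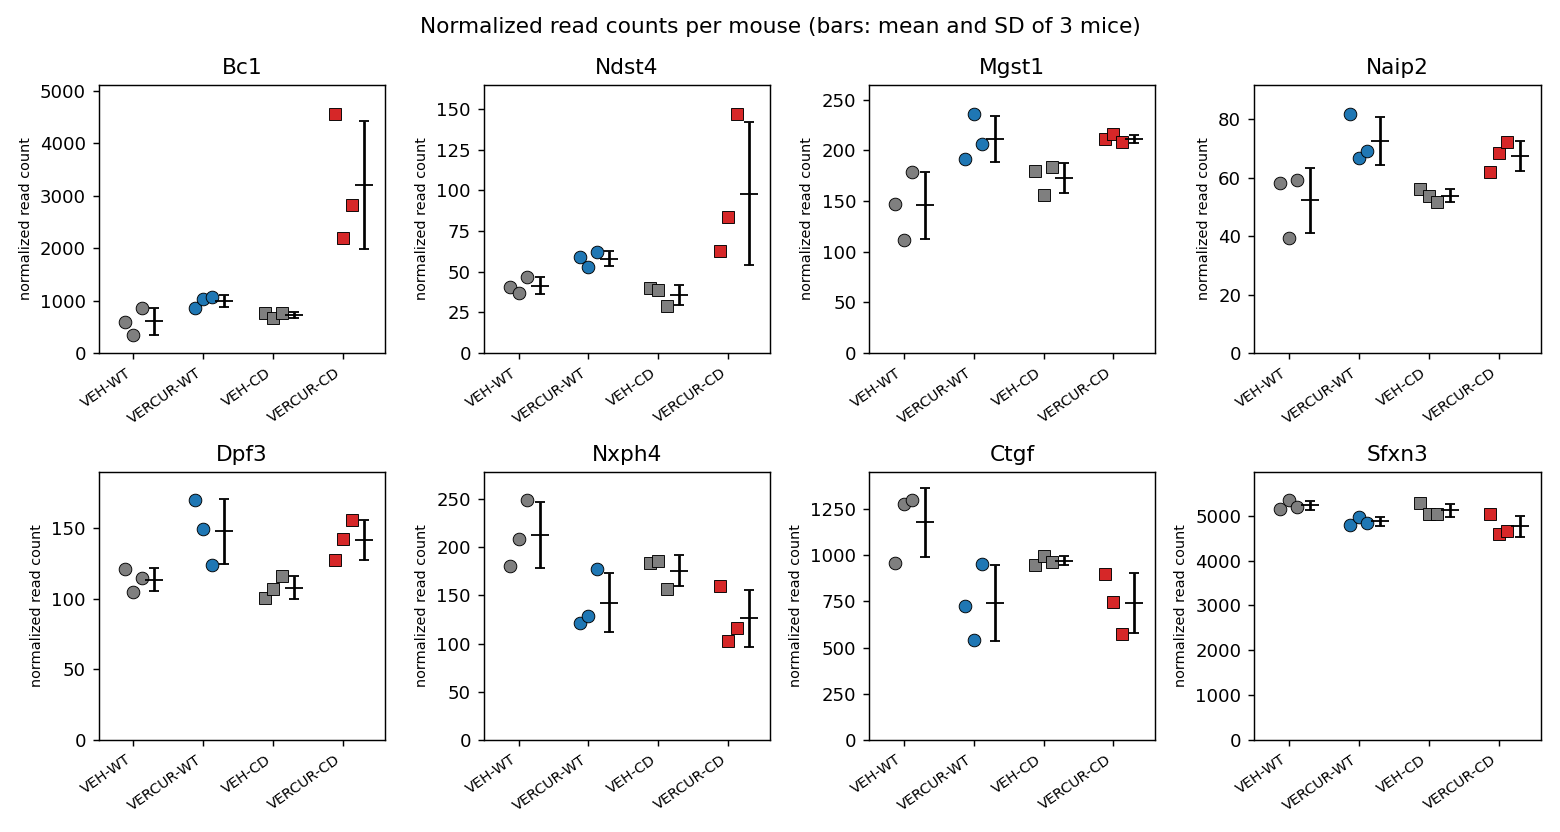
Normalized read counts (y axis, from 0) of 8 genes in each mouse (points) of the 4 groups (x axis), with the group mean and SD of 3 mice as bars. Mgst1, Naip2, Ndst4, Dpf3 and Sfxn3 do not overlap between the 6 VERCUR and the 6 VEH mice, while Bc1 is high in the 3 VERCUR-CD mice, from 2202 to 4564, and Nxph4 and Ctgf overlap.

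Bc1 had the smallest p value of all genes (unadjusted p = 9.73e-05) and a fold change of 2.70 (log2 fold change 1.43 ± 0.262, 95% interval 0.866 to 1.996). Its normalized counts were 598.5, 349.8 and 867.4 in VEH-WT, 861.7, 1029 and 1073 in VERCUR-WT, 757.5, 663.1 and 767.8 in VEH-CD, and 4564, 2202 and 2832 in VERCUR-CD. The VERCUR-CD mice lay apart from all other mice, and the VERCUR-WT mice overlapped with VEH-WT. Its log2 fold change was 0.80 in WT and 2.07 in CD, and the interaction of genotype and treatment had an unadjusted p of 0.00864 and an adjusted p of 0.816. When the error was taken within the 4 groups, its adjusted p was 0.197, and without the third VEH-WT mouse it was 0.102. Bc1 belongs to a family of repeated sequences, and as a polymerase III transcript it has no regular poly(A) tail, so that its count depends on how the mRNA libraries were selected and on how repeated reads were assigned, for which the sources used here give no detail.

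The remaining genes among the 20 with the smallest p values came from many families. Higher in VERCUR mice were Zfp53, a zinc finger gene (log2 fold change 0.33 ± 0.080), Ugt1a7c, a glucuronosyltransferase of drug and polyphenol metabolism (0.72 ± 0.180), Slc25a34, a mitochondrial carrier (0.38 ± 0.102), Tmem198b (0.29 ± 0.077), Lrriq1 (0.42 ± 0.123), the Fc receptor-like gene Fcrl1 (0.72 ± 0.197), the chloride channel accessory gene Clca3a1 (1.13 ± 0.300) and the histone gene Hist1h2ap (0.92 ± 0.244). Ugt1a7c counts were 37.95 to 68.33 in VERCUR and 20.36 to 41.50 in VEH mice, and the treatments were apart within each genotype. Ugt1a7c shares its last exons with the other Ugt1a genes and Hist1h2ap has near-identical copies, so that both counts are uncertain. Lower were Kcnk13, a potassium channel of microglia (-0.46 ± 0.121), Klhl1 (-0.31 ± 0.090) and Gm9780 (-1.22 ± 0.302). Gm9780 lay at 10.19 to 29.67 in VERCUR-WT against 68.66 to 93.03 in VEH-WT, and at 48.12 to 69.25 in VERCUR-CD against 75.41 to 87.42 in VEH-CD. Gm45736 was listed at 20.78 to 22.42 in VEH-WT and at 7.95 to 15.57 in VEH-CD, and at 0, 0 and 6.90 in VERCUR-WT and 4.36, 0 and 11.55 in VERCUR-CD. Gm9780 was low mostly in VERCUR-WT mice. Gm45736 reached 0 in both VERCUR groups and overlapped between the treatments in CD.

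Genes of the direct drug targets showed no difference that passed the test. Of the 24 measured voltage-gated calcium channel genes, 0 had an unadjusted p under 0.05, and the median log2 fold change was 0.01, against 0.00 over all genes. Cacna1c had 2674 to 3127 normalized counts in VEH and 2848 to 3956 in VERCUR mice (0.13 ± 0.081). Cacna1d had 1534 to 1870 and 1501 to 2047 (0.03 ± 0.076). Both pore subunits overlapped between the treatments. Cacna1s, the pore of the skeletal muscle channel, was weakly detected, with a mean normalized count of 31.42, and Cacng6, an auxiliary gamma subunit, had a mean of 45.41 and a log2 fold change of 0.18 ± 0.154. These genes were also tested one at a time, together with genes of the other pathways that the study followed, 16 genes in all, with an exact two-sided permutation test, in which VERCUR and VEH were exchanged within each genotype over 400 arrangements. The smallest p was 0.09 (Pycard, an inflammasome adaptor) and the smallest adjusted p over the 16 genes was 0.653. The smallest p this test can give is 0.005. Cacna1f and Il1b were not analysed here.

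Among the genes that handle calcium downstream of the channels, 3 of 35 had an unadjusted p under 0.05, against 2.89% of all genes. That share is also the background for the counts at this threshold in the lists that follow. Calb2, the calcium buffer calretinin, had a log2 fold change of 0.27 ± 0.101 and Camk2a, the main calcium-dependent kinase of excitatory synapses, of 0.16 ± 0.071. Slc8a3, a sodium-calcium exchanger, had -0.12 ± 0.053. Of 36 glutamate and GABA receptor genes, Gabrg1 (0.26 ± 0.079), Grin2b (0.20 ± 0.093) and Gabrb1 (0.21 ± 0.096) had an unadjusted p under 0.05. All were higher, and the list had a median of 0.05. Each was highest in the second VERCUR-CD mouse. That mouse had 28780 normalized counts for Grin2b and 8588 for Gabrb1, with the other mice at 17420 to 23450 and 5193 to 6747. Of 32 voltage-gated potassium channel genes, Kcng3 was higher (0.82 ± 0.300) and Kcns1 lower (-0.18 ± 0.072) at an unadjusted p under 0.05. Kcng3 had 80.94 in the second VERCUR-CD mouse and 18.32 in the first, where VEH mice had 16.77 to 38.24. In drug efflux and metabolism, Abcb1a, which encodes P-glycoprotein of the blood-brain barrier, had 1054 to 1510 normalized counts in VEH and 1259 to 1615 in VERCUR mice (0.17 ± 0.095, unadjusted p = 0.0873). Abcb1b had -0.09 ± 0.098. The organic anion transporter Slco1a4 was the only one of 27 genes of this list with an unadjusted p under 0.05 (0.20 ± 0.076).

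The NRF2 and antioxidant list had a median log2 fold change of 0.00 over its 31 measured genes, of which 17 were positive and 14 negative. Nfe2l2 itself had 577.5 to 783.1 normalized counts in VEH and 589.9 to 705.0 in VERCUR mice, with a log2 fold change of 0.00 ± 0.078 and a 95% interval from -0.17 to 0.16. That average joined a value of -0.16 in WT and of 0.15 in CD (unadjusted p of the interaction 0.0379, adjusted 0.816). Hmox1, heme oxygenase 1 and a classical NRF2 target, showed the same picture, with -0.29 in WT and 0.10 in CD. Nqo1, a quinone reductase, had 107.6 to 160.0 in VEH and 118.6 to 152.9 in VERCUR mice (0.11 ± 0.091). Slc7a11, the cystine transporter, was higher (0.37 ± 0.160, unadjusted p = 0.0359), with 1 VERCUR-CD mouse at 3183 and the other mice at 1347 to 2412. Gsr, glutathione reductase, was lower (-0.14 ± 0.046, unadjusted p = 0.0113). Mgst1 was not a member of this list.

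In the inflammatory lists, few genes approached a difference. Of 17 inflammasome genes, Naip2 alone had an unadjusted p under 0.05. Nlrp3, the sensor of the classical inflammasome, had -0.02 ± 0.183, Pycard, its adaptor ASC, 0.18 ± 0.103, and Aim2, the sensor of cytosolic DNA, -0.13 ± 0.137. Of 24 genes of the NF-kappa B pathway, 0 had an unadjusted p under 0.05 and 16 were negative. Its subunit gene Rela had -0.11 ± 0.058. Aif1, which encodes the microglial protein IBA1, had 191.7 to 310.8 normalized counts in VEH and 201.8 to 310.6 in VERCUR mice (0.14 ± 0.107), and Tgfb1 had 0.01 ± 0.085. Bdnf, the activity-regulated neurotrophin, had -0.10 ± 0.123 and Akt1 0.02 ± 0.034. For Akt1 the 95% interval, from -0.05 to 0.09, was the narrowest of these genes. Of 25 interferon-responsive genes, Oas2 was higher and Ifi27 lower at an unadjusted p under 0.05.

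**Figure D2:**
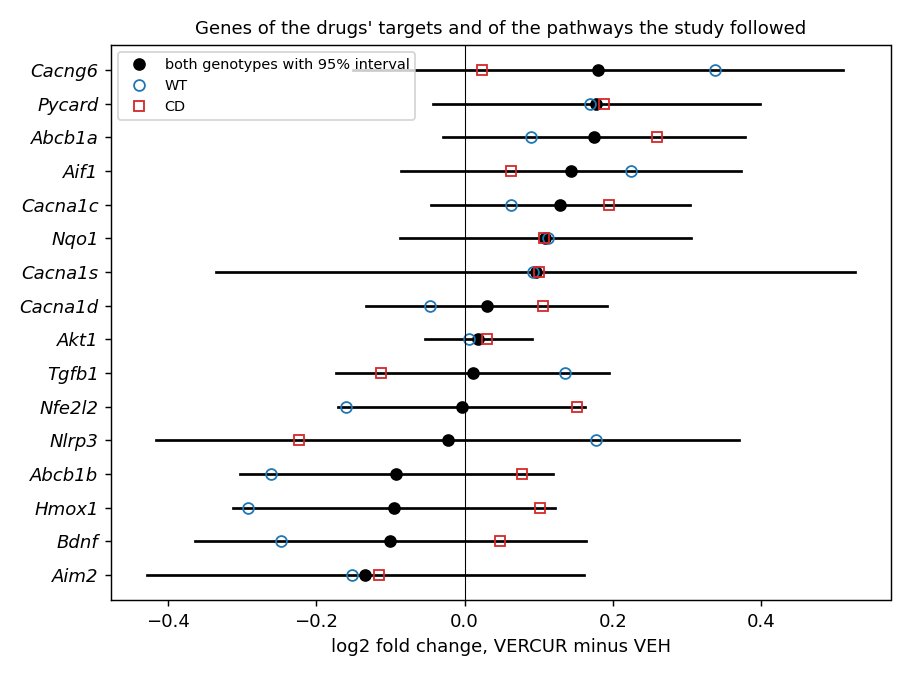
Log2 fold change of VERCUR minus VEH (x axis) for 16 genes of the drug targets and of the pathways followed by the study (y axis), with filled points and lines for both genotypes and the 95% interval, and open points for WT and CD alone. All 16 intervals include 0, and Nfe2l2, Hmox1, Tgfb1, Nlrp3, Bdnf, Abcb1b and Cacna1d have values of opposite sign in WT and CD.

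All 37 gene lists together held 0 DEGs, and 6 of them had a median log2 fold change over 0.1 in size. The lists were chosen with earlier results of these data known, and their medians are descriptions. Genes of a list vary together across mice, so that a median can rest on a few mice.

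The strongest shift was that of striatal neuron markers, genes chosen to mark neurons of a region other than cortex. All 18 were lower in VERCUR mice, with a median of -0.53 over both genotypes, -0.53 in WT and -0.60 in CD, and 2 had an unadjusted p under 0.05. Drd2, the D2 dopamine receptor, had 543.6, 561.1 and 1429 normalized counts in VEH-WT and 68.84, 75.02 and 1671 in VERCUR-WT. In VEH-CD it had 1531, 536.9 and 527.1, and in VERCUR-CD 1161, 64.75 and 49.08. Thus 4 VERCUR mice had 49.08 to 75.02, and the other 2 VERCUR mice and all 6 VEH mice had 527.1 to 1671. Adora2a, an adenosine receptor of the same striatal neurons, ran from 93.53 to 178.8 in the same 4 mice and from 578.5 to 2089 in the other 8. Sh3rf2 ran from 14.82 to 24.28 and from 86.25 to 326.9. Isl1, a transcription factor of striatal neurons, was listed at 0, 0, 1.80 and 2.89 in these 4 mice and at 12.33 to 71.58 in the others. In bulk tissue, fewer cells of a type, less RNA per cell and the share of striatum dissected with the cortex cannot be told apart. Without the third VERCUR-WT mouse the striatal median was -0.84, and without the second it was -0.36. Oligodendrocyte markers were also lower, 22 of 22, with a median of -0.29 (-0.46 in WT, -0.11 in CD, and -0.13 over both without the first VERCUR-WT mouse) and 0 members at an unadjusted p under 0.05. Sox10 and Myrf, transcription factors of the oligodendrocyte lineage, had -0.24 ± 0.114 and -0.30 ± 0.147. With the mean level of the striatal list as a covariate they had -0.11 and -0.09. The mean level of the oligodendrocyte list ranged from -0.16 to 0.48 in VEH and from -0.78 to 0.30 in VERCUR mice on a centered log2 scale. It was -0.78 to -0.02 in the 4 VERCUR mice with low Drd2, and 0.30 and 0.18 in the other 2.

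Markers of cortical layers were mixed in direction, with 9 of 22 genes positive and 13 negative. Their median was -0.11, which was -0.05 without the second VEH-WT mouse. At an unadjusted p under 0.05, 6 of the 22 were lower and 0 higher, against 1.46% of all genes lower. The 6 were Nxph4, Ctgf and Cplx3, known from subplate-derived neurons of layer 6b, Syt6 and Foxp2, known from layer 6, and Rspo1. Ctgf, a secreted matrix protein (chr10:24595442-24598683), had 960.6, 1276 and 1297 normalized counts in VEH-WT and 726.4, 542.8 and 953.0 in VERCUR-WT. In VEH-CD it had 949.5, 997.8 and 961.9, and in VERCUR-CD 900.4, 748.2 and 572.6. The treatments were apart within each genotype but the ranges met between them (log2 fold change -0.55 ± 0.139, unadjusted p = 0.00149). Nxph4, a ligand of neurexins (chr10:127525473-127534559), had 180.5, 209.0 and 248.6 in VEH-WT, 121.1, 128.7 and 177.7 in VERCUR-WT, 184.0, 185.4 and 156.9 in VEH-CD, and 159.7, 102.5 and 116.4 in VERCUR-CD (-0.54 ± 0.130, unadjusted p = 0.00111). Cplx3 had -0.26 ± 0.087 and Syt6 -0.46 ± 0.199. In each of these 4 genes the highest VERCUR mouse of each genotype was the one in which Drd2 was also high. With the mean level of the striatal list as a covariate, the log2 fold change became -0.35 for Nxph4 and -0.38 for Ctgf (unadjusted p = 0.00306 and 0.00746), -0.14 for Cplx3 and -0.12 for Syt6 (unadjusted p = 0.0704 and 0.237), so that the latter pair no longer had an unadjusted p under 0.05. In the same fit it was 1.64 for Bc1, 0.46 for Mgst1 and 0.39 for Naip2, and it moved from -0.24 to -0.11 for Sox10. The values of Foxp2 and Rspo1 in this fit were not examined.

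**Figure D3:**
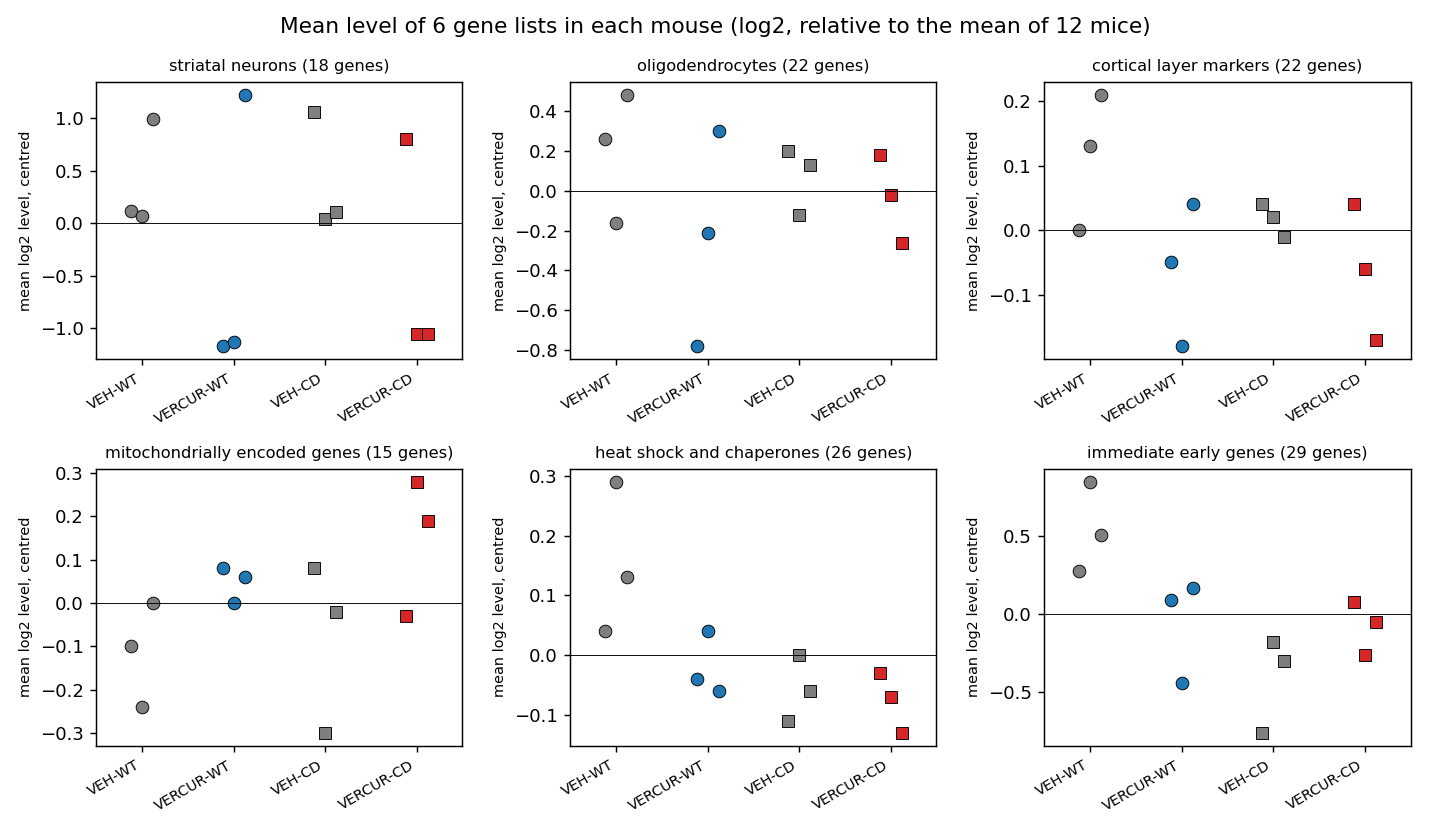
Mean log2 level of 6 gene lists in each mouse (y axis, relative to the mean of the 12 mice) for the 4 groups (x axis), with 1 point per mouse. Striatal markers lie between -1.17 and -1.05 in 4 VERCUR mice and at 0.04 or above in the other 8, and the means of immediate early genes are 0.28 to 0.85 in VEH-WT and -0.76 to -0.18 in VEH-CD.

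The 15 genes encoded by the mitochondrial genome had a median log2 fold change of 0.22, at 0.20 in WT and 0.24 in CD, and 14 of them were positive. At an unadjusted p under 0.05 there were 8 higher and 0 lower, against 1.43% of all genes higher at that threshold. Cytochrome b, mt-Cytb, had 189100 to 238500 normalized counts in VEH and 223400 to 279800 in VERCUR mice (0.22 ± 0.071), and the complex I subunit genes mt-Nd2 and mt-Nd4 had 0.28 ± 0.091 and 0.27 ± 0.093. These genes took up 3.09% to 3.79% of the normalized counts in VEH mice and 3.57% to 4.61% in VERCUR mice. The ranges overlapped, and the lowest shares, of 3.09% each, were those of 1 VEH-WT and 1 VEH-CD mouse, which were also the lowest in the astrocyte markers. The 73 nuclear genes of the respiratory chain complexes had a median of 0.00, with 37 positive and 36 negative. The cytosolic ribosomal protein genes had a median of 0.01 over 79 genes.

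Heat shock and chaperone genes had a median of -0.06 over 26 genes, at -0.11 in WT and -0.01 in CD. Without the second VEH-CD mouse the median over both genotypes was -0.03. At an unadjusted p under 0.05, 6 of the 26 were lower and 0 higher, against 1.46% of all genes lower. Hspa1a, the inducible HSP70 whose promoter is given above, had 959.4, 1991 and 1299 normalized counts in VEH-WT and 968.6, 955.8 and 844.4 in VERCUR-WT. In VEH-CD it had 784.9, 939.5 and 866.1, and in VERCUR-CD 726.8, 760.8 and 715.0 (-0.39 ± 0.137, unadjusted p = 0.0128). A single VEH-WT mouse, at 1991, stood above the rest. Hspa1a has a near-identical copy, Hspa1b, with which it can share reads. Hsph1, an HSP110 co-chaperone, had -0.14 ± 0.052, Hspa8, the constitutive HSP70, -0.12 ± 0.046, and the small heat shock protein gene Cryab -0.32 ± 0.135. Cryab, which oligodendrocytes also express, had -0.12 with the striatal covariate. The 28 genes of the unfolded protein response had 0 members at an unadjusted p under 0.05 and a median of -0.03.

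Glial and vascular lists other than oligodendrocytes had small positive medians. The second mouse of VEH-WT and of VEH-CD had the lowest mean levels of all 12 mice in the homeostatic microglia, astrocyte and endothelial lists, at -0.27 and -0.12 for microglia, where the other VEH mice ran from -0.04 to 0.12 and VERCUR mice from -0.02 to 0.10. Homeostatic microglia markers were positive in 20 of 20 genes with a median of 0.10, which was 0.05 without that VEH-WT mouse, and Cx3cr1, the fractalkine receptor, was the only one at an unadjusted p under 0.05 (0.14 ± 0.061). Of 21 activated microglia genes, Tlr2, a sensor of bacterial lipoproteins, was the only one at that threshold (0.32 ± 0.127). Astrocyte markers were positive in 20 of 20 genes with a median of 0.09, which was 0.04 without that VEH-CD mouse, and Slc1a3, a glutamate transporter, and the transcription factor Sox9 had 0.16 ± 0.063 and 0.18 ± 0.071. Endothelial markers had a median of 0.07 and pericyte markers of 0.11, which was -0.0026 without the second VEH-CD mouse. Across mice, the mean level of astrocyte markers ranged from -0.25 to 0.07 in VEH and from -0.04 to 0.13 in VERCUR mice, so that the treatments overlapped. The defining genes of blood, measured in 7 red blood cell markers, had a median of -0.02, and the 8 measured choroid plexus markers of 0.00.

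Across the transcriptome, the treatment differences of WT and CD pointed in the same direction for 43.5% of the 17111 genes, a share that was 50% without the third VEH-WT mouse and 50.3% without the second VERCUR-WT mouse. Within WT, 893 genes (5.22%) and within CD, 605 genes (3.54%) had an unadjusted p under 0.05, with 0 DEGs in either genotype (smallest adjusted p 0.206 and 0.159). Of the 893 genes, 35.3% had the same direction in CD, and of the 605 genes, 40.5% had the same direction in WT. For genes of CD this share was 51.1% without the third VEH-WT mouse. The log2 fold changes of WT and CD had a Pearson r of -0.02 and a Spearman rho of -0.13, across genes, which are not independent replicates. Within WT, the 3 VERCUR and the 3 VEH mice did not overlap for 766 higher (4.48%) and 898 lower (5.25%) genes, and within CD for 635 higher (3.71%) and 792 lower (4.63%) genes. Groups of 3 mice also separate without any effect for a share of genes, which was not computed. Genes without overlap in either genotype were higher in both for 31 genes (0.181%) and lower in both for 18 genes (0.105%). They were lower in WT and higher in CD for 70 genes (0.409%) and higher in WT and lower in CD for 38 genes (0.222%). Opposite separations were thus more numerous than shared ones. The interaction of genotype and treatment had 1035 genes (6.05%) at an unadjusted p under 0.05 and 0 at an adjusted p under 0.05, the lowest being 0.532. A difference between the genotypes was therefore not called for any single gene by limma.

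**Figure D4:**
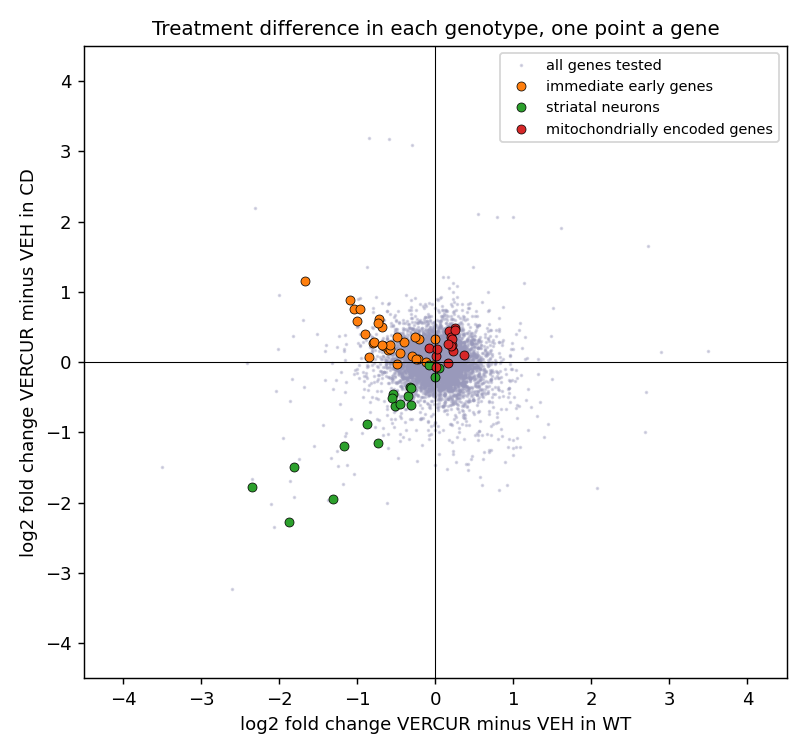
Log2 fold change of VERCUR minus VEH in WT (x axis) and in CD (y axis), with 1 point for each of the 17111 genes and 3 gene lists in color. Immediate early genes lie mostly at negative values in WT and at positive values in CD, while striatal markers are mostly negative and mitochondrially encoded genes mostly positive in both.

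Immediate early genes, the transcripts that synaptic activity induces within minutes, gave the widest gap between the genotypes. Their median log2 fold change was -0.60 in WT and 0.28 in CD, and -0.11 over both genotypes (-0.25 without the first VEH-CD mouse and -0.03 without the second VEH-WT mouse), with 26 of 29 genes negative and 0 at an unadjusted p under 0.05. Within WT, 15 of the 29 were lower in all VERCUR than in all VEH mice, against 5.25% of all genes, and within CD, 5 were higher in all VERCUR mice, against 3.71%. Klf2, a Krüppel-like transcription factor, had 636.6, 924.8 and 724.9 normalized counts in VEH-WT and 517.5, 421.4 and 559.7 in VERCUR-WT. In VEH-CD it had 387.3, 361.2 and 415.7, and in VERCUR-CD 453.7, 420.9 and 430.2. Its 4 groups therefore ran from high in VEH-WT to low in VEH-CD, with both VERCUR groups between them. Klf4 did the same, with 388.9 to 630.4 in VEH-WT, 261.3 to 325.2 in VERCUR-WT, 208.4 to 258.7 in VEH-CD and 265.6 to 295.9 in VERCUR-CD. Fosb, a subunit of AP-1, had 881.0, 2414 and 1465 in VEH-WT and 776.2 to 852.2 in VERCUR-WT, and overlapped in CD. Ier5 had 7132 to 10270 in VEH-WT and 5675 to 6249 in VERCUR-WT, and overlapped in CD. The adjusted p of the interaction was 0.783 for Klf2 and 0.816 for Klf4, Fosb and Ier5.

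Lists that respond to related signals showed the same kind of gap. The feedback inhibitors of MAP kinase signaling had medians of -0.14 in WT and 0.14 in CD, although their members of smallest p, Dusp2, Dusp10 and Dusp14, were negative in both genotypes. Glucocorticoid-responsive genes had -0.22 and 0.13, and Sgk1, a kinase induced by glucocorticoids, had -0.90 in WT and 0.05 in CD (adjusted p of the interaction 0.816). Circadian clock genes had -0.11 and 0.12. Of the 37 lists, 20 had medians of opposite sign in WT and CD, the growth factor, MAP kinase and AKT list (-0.02 and 0.07) among them. Opposite signs were common over all genes as well, where 43.5% had the same direction in WT and CD.

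**Figure D5:**
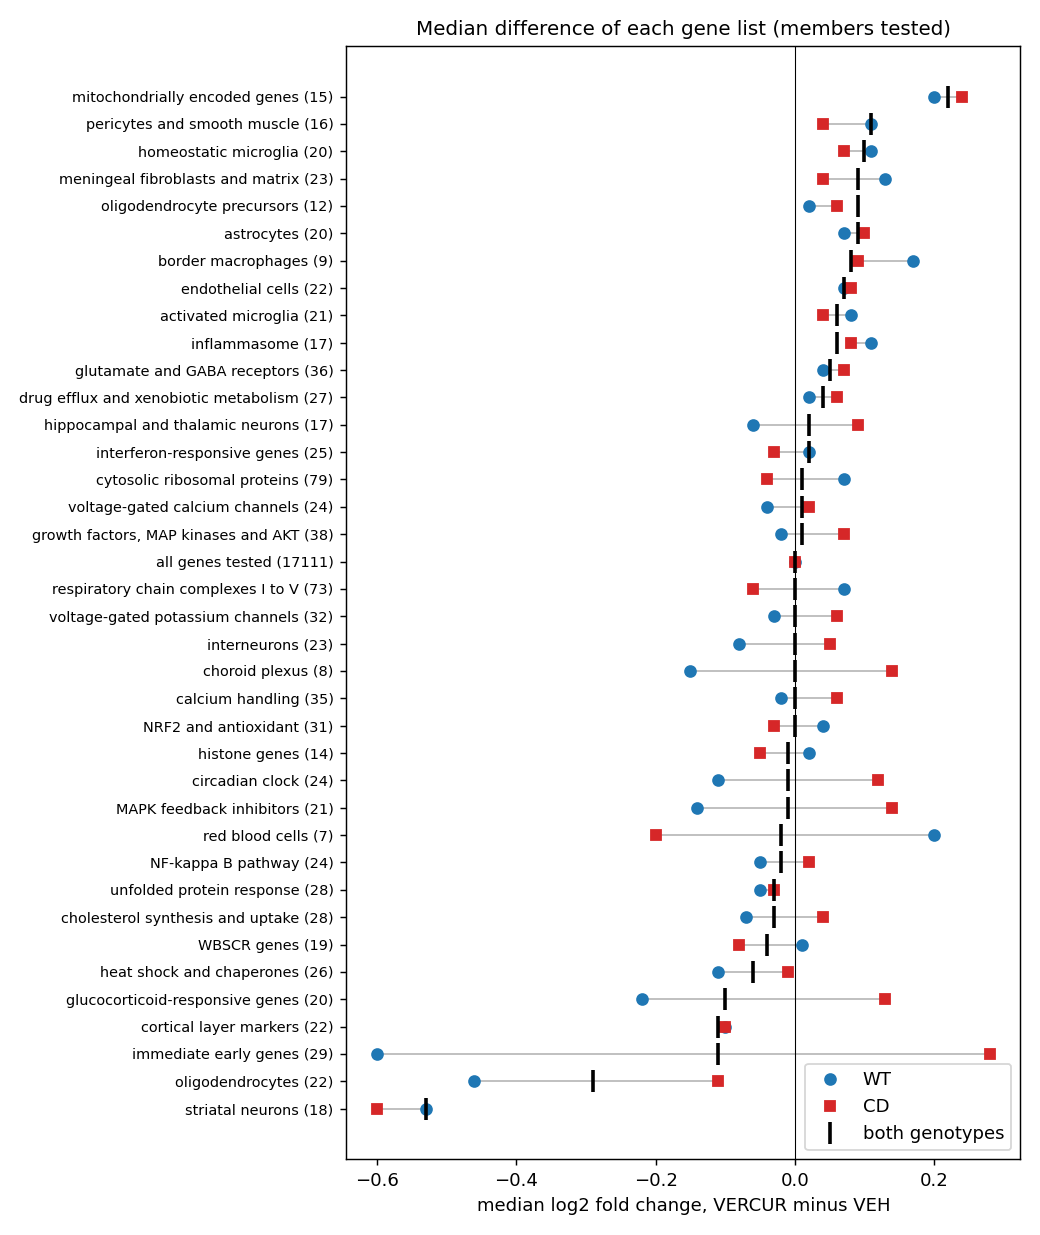
Median log2 fold change of VERCUR minus VEH (x axis) of the 37 gene lists and of all genes (y axis, members tested in parentheses), in WT, in CD and over both genotypes. Striatal markers (-0.53) and mitochondrially encoded genes (0.22) hold the ends over both genotypes, and immediate early genes show the widest gap, from -0.60 in WT to 0.28 in CD.

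The 19 measured genes of the deleted interval (WBSCR) served as a check of the labels. All 6 CD mice lay below all 6 WT mice for all 19 genes, with a median level relative to WT of 0.464 to 0.524 in CD mice and 0.962 to 1.03 in WT mice. Their median log2 fold change with treatment was -0.04. Clip2 (-0.13 ± 0.049) and Bcl7b (-0.09 ± 0.041), 2 genes of the interval, had an unadjusted p under 0.05. Each mouse had 40290000 to 56480000 counted reads, on average 52000000 ± 5750000 in VERCUR and 46400000 ± 7020000 in VEH mice (SD, n = 6, exact two-sided permutation p = 0.225). On the first principal component, with 21.3% of the variance, 1 VERCUR-CD mouse stood apart at -41.9, and none of the first 5 components separated the treatments (smallest exact permutation p 0.285).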

How the data were processed

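Frontal cortex RNA of 12 mice was sequenced in paired-end reads and aligned by the authors to GRCm38 with STAR 2.5.3a after FastQC, per the submitters' processing notes. The deposited values are normalized read counts (gene counts divided by 1 factor per sample). The counter, the annotation, the normalization and the strand setting are not given in the sources used here. Each low value, 100% of them in every mouse, was a whole multiple (within 0.1) of that mouse's step, which gave back the reads. Their number (40290000 to 56480000) describes depth and covers counting error only. The authors also deposited tables of relative expression for selected genes, which were not used here. Each column was matched to 1 label, and 0 columns of values per sample were left unused.

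The model was fitted with limma 3.58.1 under R 4.3.3, on log2(normalized count + 1), to the 17111 of 17202 genes with a mean of at least 10, with treatment and genotype as terms and an intensity trend, and tested on simulated data. Within-genotype effects and the interaction came from 4 group means in a single fit. Each sample was 1 mouse, and p values measure the spread between these mice. Adjusted p values are Benjamini-Hochberg values over all genes tested. A count of genes that do not overlap compares the lowest with the highest mouse.

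The named genes were the 20 with the smallest p (fewer than 10 DEGs were called), the 5 largest rises and falls among genes without overlap, up to 4 members of smallest p per list, members without overlap, 18 genes of the drug targets and of the pathways the study measured, and the 19 WBSCR genes in counts. Edn3, Atg10, Gm20683, Foxp2 and Rspo1, and the genes called without single mice, were named after their values were seen. The members, lists and comparisons were chosen with earlier results of these data known. Alternatives were other pseudocounts (0.1, 5), filters (none, 50), scalings, terms and weights, leaving out each mouse, and, chosen after seeing the data, voom on the recovered reads and the striatal marker level as a covariate. Replicate numbers were not taken as pairs of mice in the main fit. Gene positions are from GENCODE M21, promoters from RefSeq.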

Additional observations from a re-analysis of the deposited data

Results flagged for a closer look

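Of 78 sets of 6 mice examined (counted reads, the first principal components and the mean levels of 36 lists, in VERCUR and in VEH mice), 4 held 1 mouse far from the other 5, where about 1 in 20 sets would by chance. The first VERCUR-WT mouse had 40950000 counted reads and the other VERCUR mice at least 51020000. The mean level of MAPK feedback inhibitors was -0.163 in the second VERCUR-WT mouse, with the nearest VERCUR mouse at -0.014. That of calcium handling genes was 0.128 in the second VERCUR-CD mouse, with the nearest at 0.013. For the unfolded protein response it was 0.157 in the second VERCUR-WT mouse and -0.009 in the nearest. All levels are centered log2 values.

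For Klf2 and Klf4, all VERCUR mice lay below all VEH mice in WT and above them in CD. The difference of the effects, CD minus WT, was 0.77 for Klf2 and 0.88 for Klf4 on the log2 scale. It did not pass the test of the interaction (adjusted p = 0.783 and 0.816).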

How the results depend on the processing

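The number of DEGs over both genotypes was 0 under all alternatives run, as was the number of called list members and of genes with an interaction at an adjusted p under 0.05. With the full set, 183 genes met the fold limits with an unadjusted p under 0.05. The 4-group fit gave the smallest adjusted p under a change of model, 0.197 (Bc1). Adjusted p values of the planned edgeR and DESeq2 tests on recovered reads are absent because these tests were not run. Genes at an unadjusted p under 0.05 numbered 310 to 872 when single mice were left out, the extremes without VERCUR-WT replicate 1 and without VERCUR-CD replicate 1. Voom moved the share of higher genes among them to 38.8% (490 genes in all). Genes without overlap numbered 14 to 30 higher and 7 to 26 lower with 11 mice, as fewer mice must separate, and 7 lower after quantile normalization.

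Within genotypes, leaving out single mice gave 0 to 3 DEGs in WT and 0 to 2 in CD. Bc1 was called in CD without VEH-WT replicate 2, VEH-WT replicate 3 or VERCUR-CD replicate 2 (adjusted p = 0.0185, 0.0423 and 0.0416), and Fam205a4 without the last of these (0.00406). In WT, Gm9780 was called without VERCUR-WT replicate 1 (0.0497) and Plekhf1, Igfbpl1 and Gm21984 without VERCUR-WT replicate 3 (0.0403, 0.0403 and 0.0498). The share of the same direction ran from 26.0% to 43.4% for genes of WT and from 28.4% to 51.1% for genes of CD, the highest without VEH-WT replicate 3.

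Replicate numbers were shared by the groups. The correlation of deviations was over 0.1 in 4 of 18 same-numbered pairs and in 9 of 36 pairs of different number. These correlations cannot show that mice of the same number had nothing else in common. With the replicate block, 474 genes had an unadjusted p under 0.05, 0 were DEGs, and the share of the same direction for genes of CD was 35.9%.

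The medians of several lists moved by over 1.5 times without single mice, with the values given beside some of those described. Others included endothelial markers (0.03 without the second VEH-CD mouse) and glutamate and GABA receptors (0.02 without the first VEH-CD mouse). The unfolded protein response list had -0.06 without the second VERCUR-WT mouse. Only the median of hippocampal and thalamic neurons moved beyond the spread between mice (1 SD), at -0.03 with sample weights, -0.02 with depth as a covariate and -0.05 to 0.04 without single mice. The sign turned for Tgfb1 (-0.0026 after quantile normalization, -0.05 to 0.06 without single mice), Nlrp3 (0.0036 with depth, -0.15 to 0.09), Nfe2l2 (-0.04 to 0.06), Cacna1d (-0.01 with the striatal covariate, -0.03 to 0.07) and Aim2 (0.04 with that covariate). The other genes for which these alternatives were run kept their sign. The causes were not tested.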
